A study of Chlamydomonas reinhardtii with 42 samples.

Results

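In the green alga Chlamydomonas reinhardtii, 200 genes known here only by their locus identifiers were at a low point 12 h after vitamin B12 and thiamine were given to 2 strains, and in 1 of the strains, DHC16, they were high again at 48 h. Read counts were turned into normalized counts by the authors (reads divided by 1 factor per library), and the genes were chosen on the group means of log2(normalized count + 1). For each gene with a mean of at least 10 over all libraries, a score was taken as the smallest of 3 differences, namely A31 at 0 h minus 12 h, DHC16 at 0 h minus 12 h, and DHC16 at 48 h minus 12 h. Genes that carry a symbol in the authors' rapamycin tables were left out, and the 200 highest scores were kept among genes whose DHC16 level at 48 h was less than 1 log2 unit above that at 0 h. Of 17114 genes in the table, 14252 reached the mean of 10, 13489 of these had no symbol, and 10718 of these stayed under the 48 h limit. A placeholder character stands in the symbol column for 204 loci, and it was not read as a symbol.

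The medium was Tris-acetate and the temperature 25 °C. RNA was sequenced from the strains A31 and DHC16 at 0, 12 and 48 h of the vitamins, which per the labels serve to deplete ClpP1, a catalytic subunit of the chloroplast Clp protease. A31 had 3 libraries at 0 h, 3 at 12 h and 2 at 48 h, while DHC16 had 3 at each time. The sample records name another A31 library at 48 h, number 25, which was not analysed here. All cultures of 12 and 48 h received both vitamins, with no untreated culture beside them, so the vitamins and the time of sampling cannot be told apart. The labels name light, dim light and darkness without saying which sample had which, and they give neither the strain in which ClpP1 falls nor whether each library is a culture of its own. The p-values below therefore cover the scatter of these libraries alone, part of which may be technical. The libraries held 7458423 to 13699705 reads, and 1 read was worth 0.703 to 2.04 normalized counts. The values are shares of the RNA of a whole culture, so fewer cells with a transcript and less of it per cell cannot be told apart.

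For nearly all these genes no role could be taken from the tables, and what is known comes from 4 deflines in the rapamycin tables. One of the 4, Cre12.g539900, is described as the E1 alpha subunit of the mitochondrial branched-chain alpha-ketoacid dehydrogenase. As background, this enzyme complex carries out the committed oxidation step in the breakdown of leucine, isoleucine and valine, and the electron transfer flavoprotein passes electrons from the next dehydrogenases of that route to the respiratory chain. Land plants use the route when carbon is short, for example in prolonged darkness. Rapamycin, which enters below, inhibits TOR, a kinase that promotes growth when nutrients are plentiful and holds back autophagy.

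The score ran from 1.49 to 4.53 with a median of 1.85, and 77 members scored at least 2 and 13 at least 3. These values chose the members and are a description. Just inside the limit stood Cre26.g772050 (1.50), Cre12.g552001 (1.50) and Cre01.g031600 (1.49), and just outside it stood Cre08.g369500, Cre07.g325650 and Cre16.g681200 (each 1.49). Another 37 unnamed genes reached the score but were left out because their DHC16 level at 48 h was at least 1 log2 unit above that at 0 h.

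Over the 200 members, the median normalized count was 101 to 122 in the 3 A31 libraries at 0 h and 19.5 to 22.6 at 12 h. The corresponding medians in DHC16 were 109 to 137 and 18.4 to 20.2, and at 48 h they were back at 86.9 to 107. In A31 at 48 h the medians of the 2 libraries were 86.2 (library 19) and 32.3 (library 22). The rule chose the members for high DHC16 values at 48 h and a limited rise over 0 h, so the return in DHC16 is not a finding. The A31 libraries at 48 h, which the rule did not use, lay far apart.

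**Figure D1:**
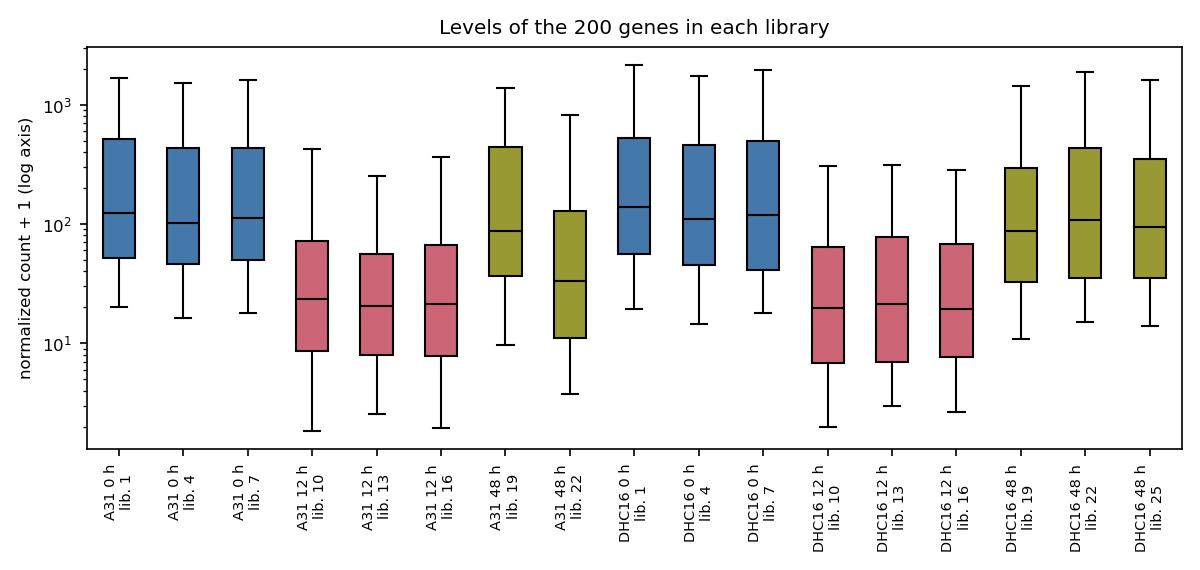
Normalized count plus 1 (log axis) of the 200 genes in each of 17 libraries, with boxes for quartiles, a line for the median and whiskers from the 5th to the 95th percentile. Blue is 0 h, red 12 h and olive 48 h, and the 12 h boxes sit lowest in both strains, with medians of 18.4 to 22.6 before 1 is added.

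The fall from 0 to 12 h had a median of 2.28 log2 units in A31 and 2.45 in DHC16, against about 0 over all unnamed genes with a mean of at least 10. The rule fixed these directions. Every A31 library at 12 h was below every A31 library at 0 h for 200 of 200 members (33.9% of all genes with a mean of at least 10), and the same held in DHC16 for 197 (32.1%), with nothing read from either count. At 12 h, 8 members in A31 and 9 in DHC16 had at most 3 reads in every library of the group, so the size of their fall is limited by counting.

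Members differed in how deep the trough was. Cre12.g518800, the highest score, had 2929.7, 2506 and 2535 normalized counts in the A31 libraries at 0 h and 70.4, 55.3 and 42.4 at 12 h. In DHC16 it had 3608, 2982 and 3067 at 0 h, 74.6, 100.3 and 82.8 at 12 h, and 1760.3, 2076 and 2183 at 48 h. The A31 libraries at 48 h split for this gene, with 2425 in library 19, inside neither earlier range but close to that of 0 h, and 76.5 in library 22, just above the 12 h values.

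Cre07.g355500 showed the same fall and the largest return in DHC16. It had 1449, 1672 and 1663 normalized counts in A31 at 0 h and 88, 67.8 and 75.2 at 12 h, then 2244 and 173 in libraries 19 and 22 at 48 h. Its DHC16 values were 2136, 1442 and 1958.5 at 0 h, 88.3, 109.1 and 70.3 at 12 h, and 2393, 3517 and 3259 at 48 h. At 48 h all 3 DHC16 libraries were above every DHC16 library of 0 h.

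Cre03.g163950 came back less far in DHC16. Its A31 values were 1098, 1211 and 965 at 0 h, 27.7, 26.5 and 27.0 at 12 h, and 1151 and 49.2 at 48 h. In DHC16 it went from 1259.8, 1106 and 1206 to 29.4, 35.4 and 33.5, and then to 366, 818 and 548, so that all 48 h libraries lay between the other 2 times. The other members with the 10 highest scores were Cre10.g426150, Cre10.g426100, Cre07.g354350, Cre17.g702100, Cre06.g300121, Cre16.g668550 and Cre17.g712800, with scores of 3.21 to 4.37.

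The members with the highest mean normalized counts were Cre16.g661631, Cre07.g337100, Cre03.g190850, Cre18.g750000, Cre08.g377550, Cre06.g271900, Cre12.g518800, Cre01.g029700, Cre07.g355500 and Cre03.g194950. Counts are not per length, so their order is not an order of expression. Cre07.g337100 had 25556, 19046 and 21157 normalized counts in A31 at 0 h and 1664, 657 and 2064 at 12 h. It returned only partly in DHC16, from 577, 1144 and 702 at 12 h to 3504, 7401 and 4673 at 48 h, against 26359, 20093 and 20429.8 at 0 h. Its A31 libraries at 48 h, 17880 and 9016, were both above every DHC16 library of that time.

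The branched-chain dehydrogenase subunit Cre12.g539900 fell from 545, 504 and 465 normalized counts in A31 to 25.1, 32.7 and 28.0 at 12 h. In DHC16 it fell from 376, 353 and 308 to 19.6, 45.2 and 29.3, and stood at 137, 123 and 136 at 48 h. It had 335 in library 19 and 96.5 in library 22 of A31 at 48 h, so in neither strain was a 48 h library back in the 0 h range. Of the other members with a defline, Cre12.g488050 is described as like a glycoside hydrolase, a class of enzymes that cleave sugar bonds, and Cre02.g133650 and Cre01.g031600 only as predicted or hypothetical proteins.

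At 48 h, DHC16 stood 0.33 log2 units below its 0 h level as a median over the members, with 157 of 200 within 1 unit. All 3 DHC16 libraries were below those of 0 h in 80 members, above them in 18, and overlapped them in 102. No like share was taken over all genes, and the rule limits how many members can lie above. As background on another measure, limma's test called 25.3% of all genes tested lower in DHC16 at 48 h than at 0 h, and 29.7% higher (Benjamini-Hochberg adjusted p under 0.05). Nothing is read from the members' counts. The comparison of 48 h with 0 h depends on the scale. On CPM values (reads scaled to the library total) the median was 0.68 above the 0 h level and only 42 members were below it. All unnamed genes with a mean of at least 10 had a median of 1.07 above on that scale. Members were chosen for high DHC16 values at 0 h and a limited rise at 48 h. The rule thus favours a lower median in the members, and nothing is read from it. The DHC16 libraries at 0 h have the largest values of 1 read, 1.31 to 2.04 normalized counts.

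A31 at 48 h took no part in the choice of the members, although its 0 h libraries were chosen high and its 12 h libraries low, which makes a place between them likely. On a scale where 0 is the mean log2 level at 12 h and 1 that at 0 h of the same strain, the median member stood at 0.869 in library 19 and at 0.269 in library 22. The 3 DHC16 libraries, which the rule used, stood at 0.802, 0.914 and 0.835, and on CPM values at 1.26, 1.55 and 1.298. Library 19 was above library 22 in 181 of 200 members. It was at or above the lowest 0 h library in 91 members, and library 22 was at or under the highest 12 h library in 79. No like share was taken over all genes for these counts, so nothing about the members is read from them.

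The split was not specific to these members. In the 585 other genes whose falls reached the lowest score in both strains, library 19 stood at 0.792 and library 22 at 0.161, while the DHC16 libraries stood at 0.293 to 0.343. Over all 17114 genes, the mean rank correlation of library 19 was 0.960 with the A31 libraries of 0 h and 0.882 with those of 12 h, and that of library 22 was 0.852 and 0.948. These are correlations across genes, which are not independent replicates. Library 22 therefore stands apart from library 19 toward 12 h over the whole transcriptome. Counts of calls at A31 48 h are given below with and without each.

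**Figure D2:**
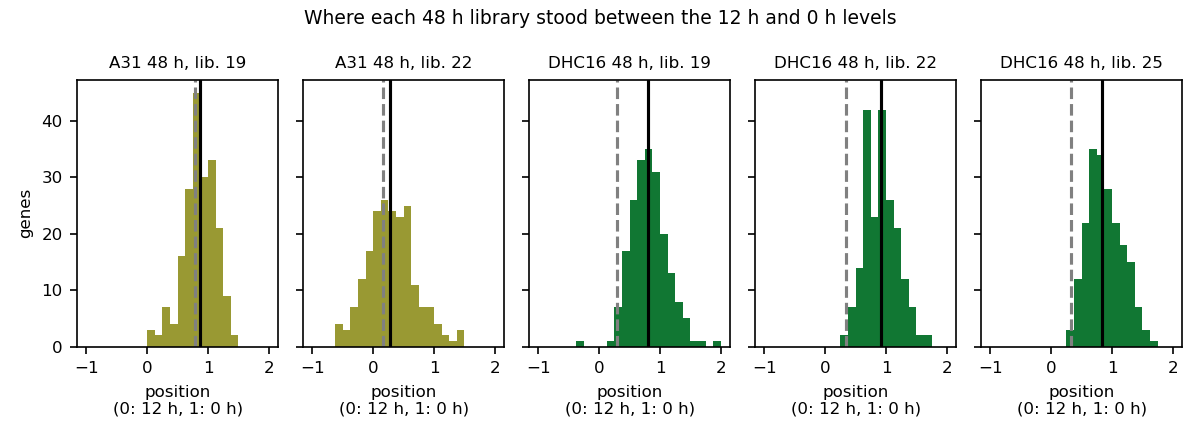
Distribution over the 200 genes of the position of each 48 h library between the 12 h mean (0) and the 0 h mean (1) of the same strain, on log2(normalized count + 1), with positions beyond -1 and 2 drawn at the ends. The solid line is the members' median (0.869, 0.269, 0.802, 0.914 and 0.835 from left to right) and the dashed line the median of 585 other genes that fell as far in both strains.

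Both A31 libraries at 48 h were in or above the 0 h range in 12 members, and both were in or under the 12 h range in 5. For these counts too, no share over all genes was taken and nothing is read from them. Nearest to their 0 h level by the mean were Cre17.g738250, Cre08.g379400, Cre31.g780701, Cre01.g029700 and Cre16.g658782. Cre01.g029700, for example, had 1656, 1256 and 1269 normalized counts at 0 h, 316, 359.8 and 543 at 12 h, and 1391 and 1451 at 48 h. In Cre17.g738250 the mean hides values of 125 and 41.0 at 48 h, but its 0 h libraries were spread as widely, with 125, 42.0 and 68.9. Nearest to the 12 h level were Cre10.g465200, Cre04.g216900, Cre09.g399850, Cre09.g396586 and Cre53.g790701, and Cre09.g399850 had 4.19, 4.67 and 3.86 at 12 h and 5.49 and 3.64 at 48 h.

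In limma's test over 14422 genes, 199 of the 200 members were tested (1 was under the filter, a mean of 1 CPM). At 48 h in A31, 89 members were lower than at 0 h (12.6% of all genes tested) and 124 were higher than at 12 h (12.2%), both at a Benjamini-Hochberg adjusted p under 0.05. The choice of high 0 h and low 12 h libraries favours these directions, and nothing is read from them. Without library 22 the counts were 11 (2.72% of all genes) and 177 (18.8%), and without library 19 they were 150 (23.5%) and 58 (8.58%), where the lone library is taken to vary like the other groups.

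The rule did not use the differences between the strains at 0 h and 12 h, but it did use all the libraries of these times. It asked for a fall in both strains, which can limit how far members differ between them. The members' shares are therefore not freely comparable with those of all genes. At 0 h, 5 members were called, 3 higher and 2 lower in DHC16, where 9.38% of all genes tested were called. At 12 h, 4 members were called, 2 in each direction, against 3.45% of all genes. The members' shares were 2.51% and 2.01%. On CPM values 58 members (29.1%) were called at 0 h, 57 of them lower in DHC16, beside 51.6% of all genes, 50.8% lower, and the median of all genes moved by 0.71 in the same direction. At 12 h the CPM values gave 15 members (7.54%), 12 of them lower, beside 7.32% of all genes. Without A31 library 19 or 22 at 48 h, which share the estimate of spread, 15 members (7.54%) were called at 0 h either way, beside 17.8% of all genes. At 12 h there were then 28 without library 19 (14.1%, beside 9.85% of all genes) and 30 without library 22 (15.1%, beside 9.91%). With only the 2 groups in the fit, 10.1% of members and 9.14% of all genes were called at 0 h, and 12.6% and 17.3% at 12 h. Whether the members' share was above or below that of all genes thus changed with the fit at both times.

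Cre16.g659800 was higher in DHC16 at both times. It had 32.5, 57.2 and 65.4 normalized counts in the A31 libraries at 0 h and 289.9, 426 and 333 in those of DHC16. At 12 h it had 10.1, 10.9 and 10.6 in A31 and 45.1, 41.3 and 32.6 in DHC16. The strains did not overlap at either time, and the difference was 2.78 ± 0.27 (SE) log2 units at 0 h (limma adjusted p = 1.4e-05) and 1.81 ± 0.27 at 12 h (limma adjusted p = 0.0011).

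Cre03.g185850 was lower in DHC16 at both times. Its values at 0 h were 979, 632 and 993 in A31 and 351, 210.4 and 317 in DHC16, and at 12 h 479, 156 and 304 in A31 and 95.2, 78.7 and 66.9 in DHC16. The strains did not overlap, and the difference was -1.57 ± 0.34 at 0 h (limma adjusted p = 0.0086) and -1.82 ± 0.34 at 12 h (limma adjusted p = 0.0056).

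The other calls were at 1 time each. At 0 h, Cre03.g153550 was 1.03 ± 0.29 log2 units higher in DHC16 (limma adjusted p = 0.033), a call lost with the library number as a block (limma adjusted p = 0.059). Cre01.g029700 was 0.78 ± 0.20 higher (limma adjusted p = 0.023) and Cre17.g720850 1.28 ± 0.38 lower, a difference of -1.28 (limma adjusted p = 0.044). On CPM values the differences of Cre03.g153550 and Cre01.g029700 were 0.32 and 0.06 and were not called. In all, their calls were lost in 7 and 6 of the 25 alternative settings. Cre17.g720850 missed the threshold in 15 of the alternatives, most of them with 1 library left out.

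At 12 h, the glycoside-hydrolase-like gene Cre12.g488050 had 183, 108 and 179 normalized counts in A31 and 55.9, 61.9 and 47.7 in DHC16. The groups did not overlap, and the difference was -1.46 ± 0.23 (limma adjusted p = 0.0014). Cre02.g091193 was higher in DHC16 at 12 h, with 26.5, 49.2 and 46.9 against 18.4, 13.2 and 10.6 in A31, a difference of 1.45 ± 0.34 (limma adjusted p = 0.026). It missed the threshold without A31 library 13 or 16 or DHC16 library 13 or 16, with limma adjusted p from 0.063 to 0.14, and also with a pseudocount of 8.

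**Figure D3:**
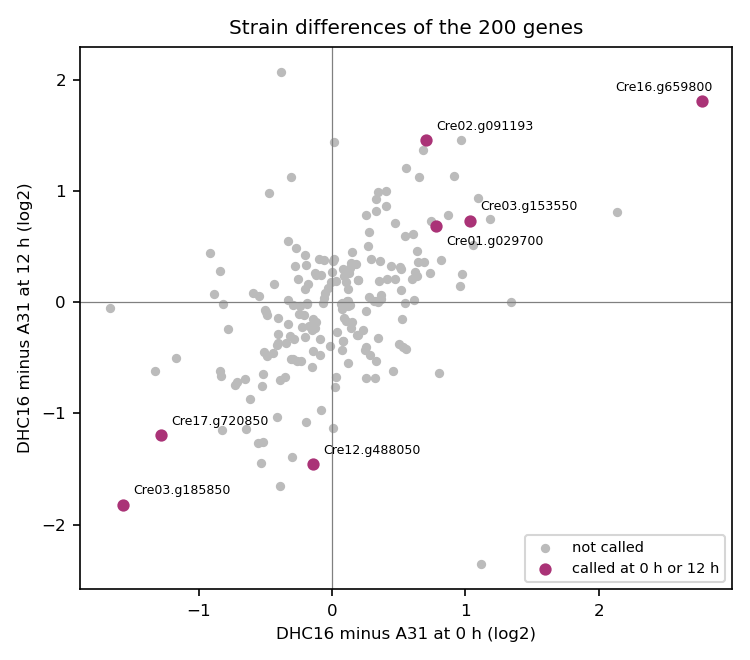
DHC16 minus A31 in log2(normalized count + 1) at 0 h (horizontal axis) and 12 h (vertical axis) for the 200 genes, each point 1 gene. Purple points are the 7 members called at either time, and Cre16.g659800 (2.78 and 1.81) and Cre03.g185850 (-1.57 and -1.82) lie at opposite corners.

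At 48 h, 59 members were called between the strains, 55 higher and 4 lower in DHC16, where 31.5% of all genes tested were called, 16% higher. The DHC16 libraries of 48 h were chosen high by the rule, so the direction is not a finding. Without library 22 of A31 there were 22 higher and 21 lower, and without library 19 there were 121 higher and 2 lower, while 37.5% of all genes were called in either case. The largest differences (± SE) were Cre16.g659800 (4.35 ± 0.30), Cre08.g361941 (3.94 ± 0.81), Cre10.g433500 (3.75 ± 0.47), Cre07.g354350 (2.95 ± 0.51) and Cre09.g396586 (2.91 ± 0.58).

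In each of the genes just named, both A31 libraries lay below every DHC16 library. Cre16.g659800 had 28.2 and 14.6 normalized counts in A31 at 48 h and 439, 433 and 431 in DHC16. Cre10.g433500 had 1.57 and 1.82 in A31, which is at most 3 reads in each library, and 31.2, 38.3 and 36.9 in DHC16. In Cre08.g361941 library 19 of A31 had 28.2 and library 22 had 0.91, which is 1 read, against 107, 107 and 129 in DHC16. Cre07.g354350 had 40.0 and 5.46 in A31 and 119, 126 and 129 in DHC16. Cre09.g396586 had 8.62 and 1.82 in A31 and 33.9, 34.4 and 47.9 in DHC16. The size of such differences rests in part on the low values of library 22. The 4 lower members were Cre07.g337100 (-1.36), Cre03.g190850 (-1.20), Cre02.g091193 (-1.06) and Cre01.g062000 (-0.70), and these calls were lost in 7, 7, 14 and 17 of the 25 alternative settings.

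For rapamycin, the authors' deposited tables give A31 at 2 h and 8 h over 0 h, and list only genes with an absolute log2 fold change over 1 and an adjusted p under 0.01. A gene that is not listed has no value here. In the authors' deposited table for 2 h, 35 members are listed, 34 higher and 1 lower. In that for 8 h, 20 are listed and all are higher. Among the 13489 unnamed genes with a mean of at least 10, 4.27% are listed higher at 2 h and 3.21% at 8 h, and more are listed lower (5.53% and 5.09%). The members' shares listed higher were 17% and 10%. The rule chose the members on DHC16 at 48 h minus 12 h. The authors' 0 h level ranks like the 12 h libraries, and their later levels like DHC16 at 48 h (values below). These shares are therefore not independent of the rule, and nothing is read from them. With the 200 genes chosen on CPM values instead, 32 are listed higher at 2 h and 11 at 8 h.

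Genes with as deep a fall that did not enter the 200 give a reference for the fall alone, not for the rise in DHC16 at 48 h. Of the 549 other unnamed genes that fell as far at 12 h in both strains, 7.10% were listed higher at 2 h in the authors' deposited table, 39 against 17 lower, and 3.46% at 8 h, 19 against 21 lower. In all, 37 members are in either table, 18 in both, and 36 are higher at each time listed. The exception, Cre08.g380700, has a log2 fold change of -1.49 at 2 h in the authors' deposited table.

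Cre07.g337100 has the largest values in the authors' deposited tables, 4.85 at 2 h and 3.81 at 8 h, with mean levels of 0.846 at 0 h, 75.7 at 2 h and 42.1 at 8 h on a scale that is not stated. Cre04.g220650 follows with 2.83 and 3.23 in the authors' deposited tables, from 7.24 to 60.0 and 92.9. The next at 8 h are Cre16.g656150 (2.31), Cre08.g379400 (2.04), Cre12.g530000 (1.89), Cre13.g590750 (1.88), Cre06.g302000 (1.79), Cre02.g133650 (1.72), Cre04.g221550 (1.44) and Cre01.g062000 (1.40), all from the authors' deposited table. The branched-chain dehydrogenase subunit Cre12.g539900 is listed at 2 h only, with 1.91 in the authors' deposited table.

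**Figure D4:**
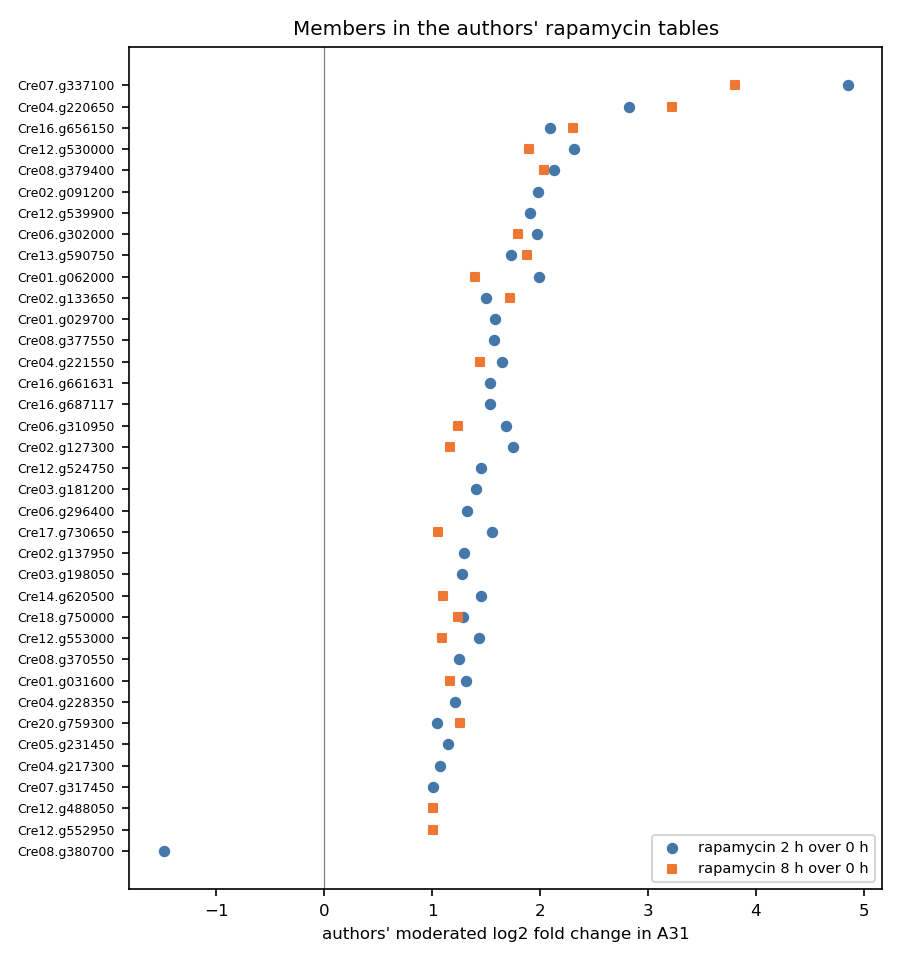
The authors' log2 fold changes for the 37 members in their rapamycin tables, blue circles for 2 h and orange squares for 8 h over 0 h in A31, a missing symbol meaning that the gene is not listed at that time. All points but that of Cre08.g380700 (-1.49) are above 1, the smallest change the tables list.

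The 0 h level of the rapamycin tables was unlike that of the vitamin libraries at 0 h. Across 2550 listed genes, the authors' 0 h level had a rank correlation of 0.403 to 0.425 with the A31 libraries of 0 h. With those of 12 h it had 0.729 to 0.748. The 2 h level (1847 genes) had 0.631 to 0.651 with A31 at 0 h and 0.787 to 0.81 with DHC16 at 48 h. For the 8 h level (1643 genes) the values were 0.406 to 0.43 and 0.715 to 0.744. Library 22 of A31 at 48 h had 0.812 with the 2 h level and 0.737 with the 8 h level, and library 19 had 0.721 and 0.496. For the 37 listed members the authors' log2 level at 0 h was a median difference of -7.66 from their mean in the vitamin libraries of A31 at 0 h and of -5.28 from that at 12 h. For all 715 unnamed genes listed higher, the values were -5.29 and -5.11. The scales differ, so members can only be set beside the other listed genes, and the listed genes were chosen for their rapamycin change. The rule also chose the members for high A31 values at 0 h and low ones at 12 h. That choice favours a larger difference from the 0 h libraries in the members, so nothing is read from it. The rapamycin records at 0 h carry the same strain, time and numbers as the vitamin records, and whether they are the same cultures was not tested.

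Among the 763 genes with a symbol, which took no part in the choice, 8 would have entered the 200. These are AGT3 (alanine-glyoxylate aminotransferase), MCCA (methylcrotonoyl-CoA carboxylase alpha subunit), ETFA (electron transfer flavoprotein alpha subunit), DRP4A (a dynamin-related GTPase), AIH1 (agmatine iminohydrolase), PRFC1 (a peptide-chain release factor), and CGL66 and CGL81, called predicted proteins. MCCA belongs to an enzyme of leucine breakdown downstream of the branched-chain dehydrogenase, and ETFA to the flavoprotein named above. AGT3 moves amino groups between alanine and glyoxylate.

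MCCA had 655, 625 and 476 normalized counts in A31 at 0 h, 31.8, 49.1 and 48.2 at 12 h, and 454 and 93.8 at 48 h. In DHC16 it had 876, 889.6 and 624 at 0 h, 47.1, 114 and 66.9 at 12 h, and 282, 632 and 405 at 48 h. ETFA had 624, 642 and 560.3 in A31 at 0 h and 116, 128 and 157 at 12 h, with 488 and 224 at 48 h. In both genes library 22 of A31 at 48 h was nearer to 12 h and library 19 nearer to 0 h, as in the unnamed members.

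The profile of a gene over the 17 libraries was compared with the members' mean profile by Pearson's r, as a description in which the gap between 12 h and the other times weighs most. The 10 most alike genes with a symbol were PRFC1 (0.982), MCCA (0.971), ETFA (0.967), TRP11 (0.964), CPL6 (0.956), MTA3 (0.947), FBA1 (0.946), VPE1 (0.946), DRP4A (0.942) and HPD2 (0.936). VPE1 is annotated as a vacuolar processing enzyme, a protease, and HPD2 as 4-hydroxyphenylpyruvate dioxygenase, an enzyme of tyrosine breakdown. FBA1 is a fructose bisphosphate aldolase of sugar metabolism. Every gene with a symbol is in a rapamycin table, so this set is not a sample of all named genes.

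Lists of named genes taken by symbol held no gene at the level of the lowest score. Without the 48 h limit, 12 of all 763 genes with a symbol reached it, so an empty short list says little. Of plastid ribosomal proteins 0 of 29 reached it, of photosystem and light-harvesting genes 0 of 15, of flagellar genes 0 of 150, of replication and cell cycle genes 0 of 24, of chaperones 0 of 13, of chlorophyll synthesis genes 0 of 6 and of other ribosomal proteins 0 of 3. Replication and cell cycle genes had at 12 h a median 4.34 log2 units above 0 h in A31 and 4.09 in DHC16, beside a median of -0.01 and 0.41 in all genes with a symbol. Photosystem and light-harvesting genes (1.33 and 1.24) and chlorophyll synthesis genes (0.52 and 0.67) were also above 0 h. Plastid ribosomal proteins (-0.71 and -0.94) and other ribosomal proteins (-1.18 and -1.60) were below it. Flagellar genes had -0.60 and 0.27, and chaperones 0.10 and 1.34.

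Members also lay beside each other in the genome. In 13 pairs, with 26 members or 13% of the 200, the loci follow each other in the table's order of locus numbers. Of the 13289 other genes with no symbol and a mean of at least 10, 2.21% have a member next to them in that order. RefSeq's gene table (assembly Chlamydomonas_reinhardtii_v5.5, used for order only) holds 144 members, and the 8 pairs with both loci in it are neighbours there. Reads that overlapping or near-identical loci share could have been split in counting, and no source states a strand setting, so such pairs may not be independent measurements.

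The correlation between the 2 loci of a pair over the libraries had a median of 0.894, and that of the other 19887 pairs of members was 0.837. The rule chose all members for the same course over most of these libraries, so a high correlation is fixed by it and nothing is read from these values. The correlation was 0.989 for Cre12.g552950 and Cre12.g553000 and 0.979 for Cre10.g426100 and Cre10.g426150, and lowest, 0.695, for Cre04.g221500 and Cre04.g221550. Cre10.g426100 had 524, 519 and 483 normalized counts in A31 at 0 h, 26.0, 17.9 and 9.64 at 12 h, and 517 and 104 at 48 h. Cre10.g426150 had 124, 78.6 and 68.2, then 2.51, 5.45 and 0, then 67.4 and 15.5. In both genes library 22 of A31, which the rule did not use, stood between 12 h and 0 h. It did so in 103 of the 200 members, a count with no share over all genes beside it.

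Neighbours could also differ in their calls between the strains. Cre16.g659800, higher in DHC16 at 0 h and 12 h, lies beside Cre16.g659750, which was not called at either time. At 48 h, where the rule chose DHC16 high, both were called higher in DHC16 (4.35 and 1.20). Cre02.g091193, higher in DHC16 at 12 h, lies beside Cre02.g091200, which was not called either. The difference between the neighbours themselves was not tested.

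**Figure D5:**
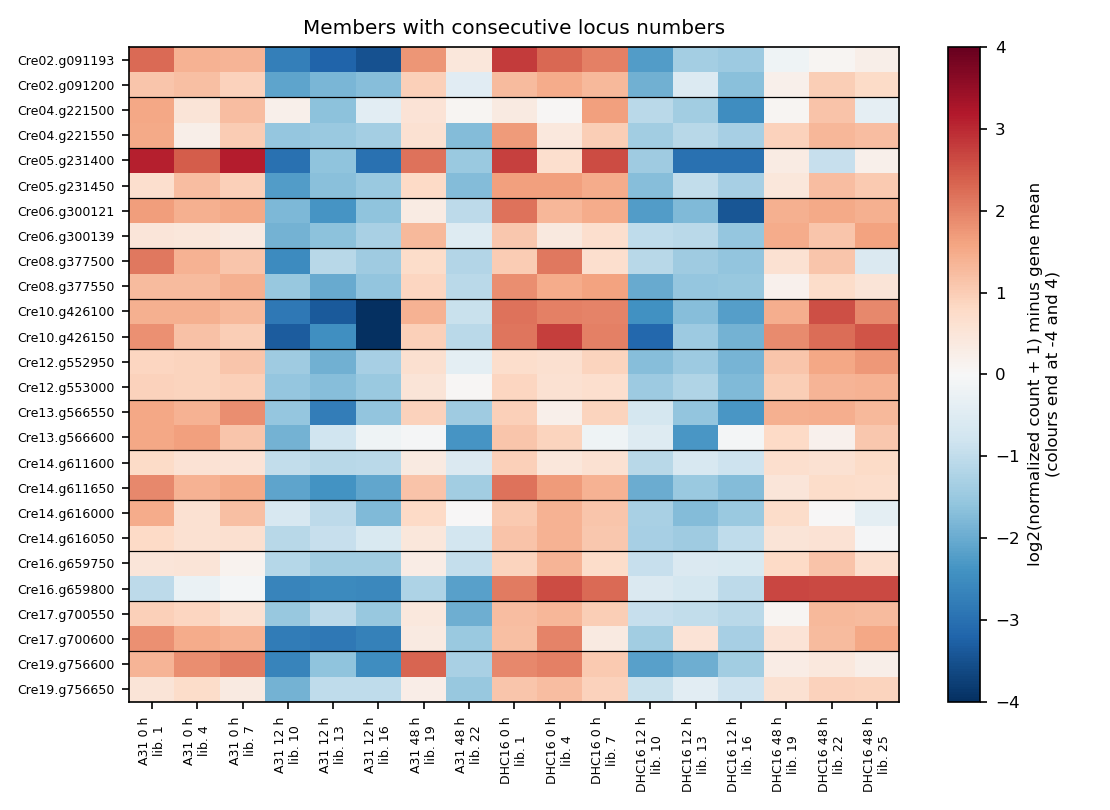
Log2(normalized count + 1) minus the gene's mean over 17 libraries (colour) for 13 pairs of members with consecutive locus numbers, black lines parting the pairs. Blue columns at 12 h run through both strains, and library 22 of A31 at 48 h is bluer than library 19. Cre16.g659800 is red in DHC16 at 0 h and 48 h and pale or blue in DHC16 at 12 h and in A31.

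Members varied in how closely they kept to the shared profile. The correlation of a member with the mean of the other members over the libraries ran from 0.581 to 0.990, with a median of 0.917. The lowest was that of Cre31.g780701, which had no read in DHC16 libraries 10 and 16 at 12 h and in library 19 at 48 h.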

How the data were processed

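The table that the authors deposited holds a signal, the normalized count. Each of its values equals a whole number of reads times 1 step per library (tolerance 0.01), and dividing by the step gave back the reads. The submitters' processing notes name edgeR 3.0.8, HTSeq 0.5.3p9, TopHat 1.3.1 and CASAVA 1.8.2, with no roles, genome build or normalization method. For rapamycin the authors deposited log2 fold changes, adjusted p-values and mean levels (a signal of unstated scale), per the file headers. Symbols and deflines come from those tables.

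Here, limma 3.58.1 (limma-trend, R 4.3.3) was fitted to 14422 genes whose mean reached 1 CPM. The values were log2(normalized count + 1), and each strain at each time had its own mean, with the spread shared by all 17 libraries. P-values were adjusted by Benjamini-Hochberg over these genes at 0.05. The fit was tested on simulated data. The members, lists and tests were chosen with earlier results of these data known. The fit also covers the contrasts that the rule used, but no p-value or count of called members from it is given for them. The strain contrasts at 0 h and 12 h, which the rule did not use although it used their libraries, are read as results for single genes. Library numbers are shared between the strains. At 0 h the deviations of same-numbered libraries from their group means correlated at 0.222, 0.211 and 0.151. The numbers were therefore taken to pair the libraries there, from the data and not from the labels. The main fit, which gave the values and p-values above unless stated, does not use this pairing. With the library number as a block, 4 of the 5 members called at 0 h were still called.

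Genes named are the 10 highest scores, the 10 highest means, those at the limit, up to 5 called members in each direction per strain contrast, the 5 nearest either level in A31 at 48 h, 10 members of the rapamycin tables, pairs of neighbours, and the named genes most alike. No genome or sequence table was used, so no sequences are shown.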

Additional observations from a re-analysis of the deposited data

How the results depend on the processing

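Counts of called members moved with the settings, and the cause was not tested. The share of all genes called under the same setting is in brackets. For DHC16 against A31 at 0 h the 5 calls became 58 on CPM values (51.6%) and 2 after quantile normalization (5.33%). They became 10 with DESeq2 (10.7%), 11 with a pseudocount of 8 (9.28%) and 20 with only the 2 groups in the fit (9.14%). At 12 h the 4 calls became 15 on CPM values (7.32%) and 7 after quantile normalization (4.46%). They became 8 with DESeq2 (6.99%) and 25 with only the 2 groups (17.3%). At 48 h the 59 became 108 on CPM values (45%) and 19 with only the 2 groups (11.3%). For A31 at 48 h against 0 h, 89 became 3 with only the 2 groups (2.06%). Against 12 h, 124 became 79 on CPM values (45.2%, 3.87% higher). With only the 2 groups, where there are 5 libraries, 0 members and 0% of all genes were called (limma, 109 members at an unadjusted p under 0.05). With 1 library left out, the counts ran from 2 to 15 at 0 h, 3 to 30 at 12 h, 37 to 123 at 48 h, 11 to 150 for A31 at 48 h against 0 h and 58 to 177 against 12 h, with libraries 19 and 22 of A31 giving the highest counts and the lowest of the last 2 ranges. The replicate block gave 6, 4 and 39 calls at 0, 12 and 48 h, beside 8.4%, 3.09% and 26.1% of all genes. At 12 h and 48 h the numbers do not pair the libraries (correlations from -0.084 to 0.178), and time comparisons share no numbers.

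Of the 200 members, 115 were kept on CPM values, 124 with a minimum mean of 50, 195 with TMM scaling, 176 after quantile normalization, 152 with a pseudocount of 8, 177 to 195 with 1 library left out, and 196 with the placeholder read as a symbol, an alternative chosen after seeing the data. With the members chosen on CPM values, 32 were listed higher at 2 h of rapamycin and 11 at 8 h, with 1 and 2 lower. On CPM values the positions at 48 h were 0.729 and 0.109 in A31 and 1.26, 1.55 and 1.298 in DHC16. The 18 strain differences of named members kept their sign under every setting tried and missed the threshold in 78 of 450 recomputed values. Members near 3 reads at 12 h are limited by depth.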
